A study of Saccharomyces cerevisiae with 6 samples.

Results

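The genes examined here are 31 genes of budding yeast (Saccharomyces cerevisiae) that serve growth on carbon sources other than glucose, together with genes of the signalling system that keeps such genes low when glucose is present. They comprise 21 genes of enzymes and transporters and 10 genes of regulators. They were chosen by gene symbol and found through the array's platform annotation, out of 5656 genes with a probe set (a group of probes that reads 1 transcript) annotated to exactly 1 gene. Where a gene had several such probe sets, the brightest was used.

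Total RNA was measured on 6 Affymetrix arrays, 3 from a wild-type strain and 3 from a mutant strain labelled H3 K4,36,79R, in which arginine replaces the histone H3 lysines at positions 4, 36 and 79. Cells of both groups grew in selective galactose medium and were then kept in selective glucose medium for 6 h. The series design states that glucose shuts off wild-type H3, so that the mutant form is the only H3 left, and that RNA came from replicate cultures. The labels give no strain background, plasmid or clone number, so the lysines cannot be told apart from any other difference between the strains.

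Glucose repression works through the Snf1 protein kinase. In ample glucose the phosphatase Glc7, directed by its subunit Reg1, keeps Snf1 inactive, and the repressor Mig1 shuts target genes. When glucose runs low, Snf1 releases Mig1 and activates the regulators Cat8, Sip4 and Adr1, which turn on genes for the use of ethanol, acetate, lactate and glycerol, for the glyoxylate cycle and for gluconeogenesis. The arrays were taken after a move into glucose, the condition in which these genes are normally repressed.

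The signal values below were scaled so that each array had the same mean, and differences are mutant minus wild type on the scale of log2(signal + 16), where 1 corresponds to about 2-fold for bright probe sets and to more than that for dim ones. The wild-type arrays had equal means as deposited, whereas the mutant arrays stood at 0.888, 0.868 and 0.767 of the wild-type mean for replicates 1, 2 and 3. With the intensities as deposited, the median difference of all probe sets tested was -0.22, against 0.02 with equal means, and the difference of each tested member was lower there. Of 3 probe sets shared by the H3 genes HHT1 and HHT2, 1 fell by 1.57 (SE 0.12, limma adjusted p = 0.00125) and the brightest differed by -0.11 (SE 0.11, adjusted p = 0.648). GAL7 of the galactose pathway had signals of 77.9 to 93.7 in the wild type against 72.8 to 120.7 in the mutant, so the groups overlapped.

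Of the 31 members, 29 passed the filter of a mean scaled signal of 50 and were tested, 20 of 21 enzyme and transporter genes and 9 of 10 regulator genes. In the mutant, 1 member rose, the isocitrate dehydrogenase gene IDP2, and none fell, at a limma adjusted p under 0.05. Over all 6808 probe sets tested the share called was 2.25%, with 0.896% higher and 1.35% lower. At an unadjusted limma p under 0.05 stood 9 of the 20 enzyme and transporter genes, 6 higher and 3 lower, and 0 of the 9 regulator genes, where the share of all probe sets was 19.6%. The 3 mutant arrays did not overlap the 3 wild-type arrays for 10 of the 20 enzyme and transporter genes, 5 higher and 5 lower. They overlapped for each of the 9 regulator genes. The share of all probe sets without overlap was 25.8%, of which 14.3% were higher and 11.5% lower.

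The differences of the enzyme and transporter genes ranged from -0.51 to 0.75, with an SD of 0.40 over the 20 genes and a median of -0.07. Those of the regulator genes ranged from -0.13 to 0.31, with an SD of 0.14 and a median of 0.01. Over all probe sets tested the SD was 0.33 and the median 0.02. The median size of a difference, without its sign, was 0.30 for enzymes and transporters, 0.10 for regulators and 0.19 for all probe sets. These are descriptions with no test.

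**Figure D1:**
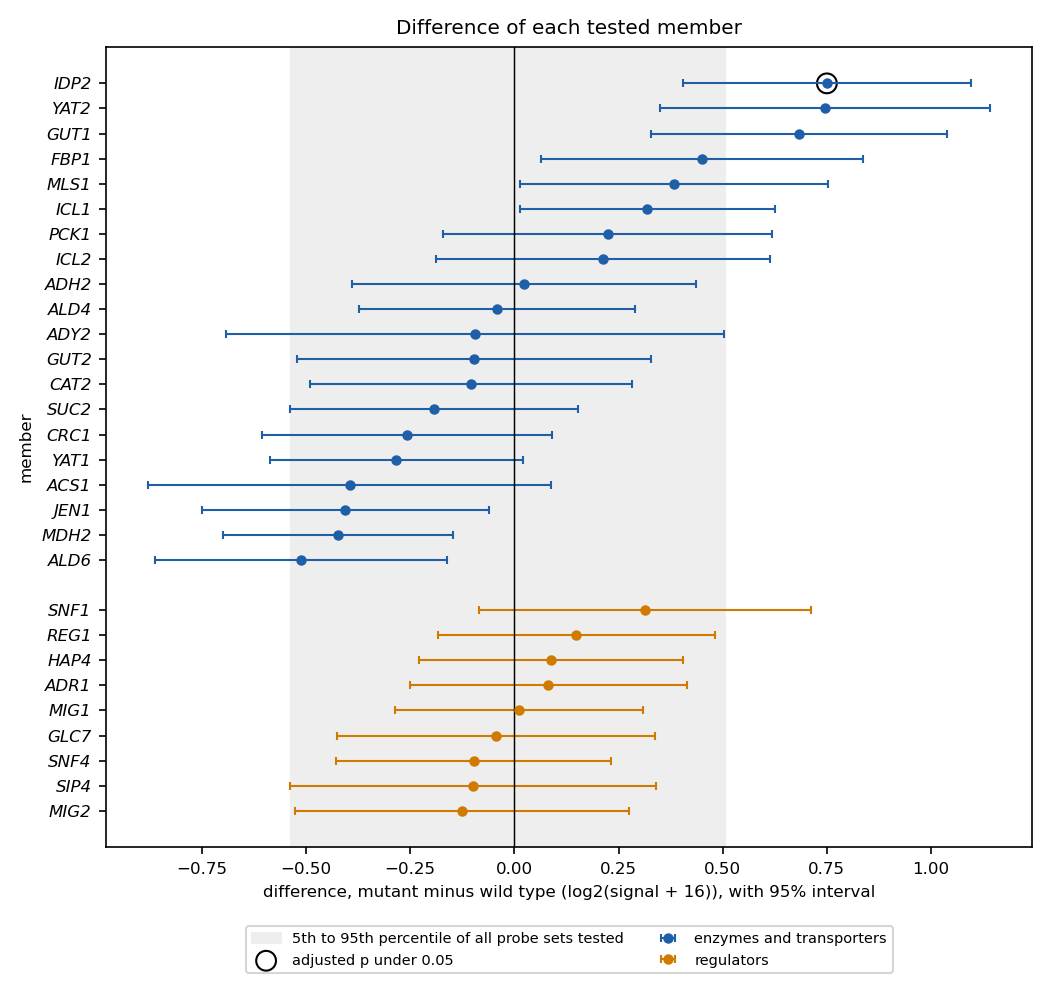
Difference between mutant and wild type (log2(signal + 16), x axis) with its 95% interval from limma for the 29 tested members (y axis), 20 enzymes and transporters above and 9 regulators below. The grey band spans the 5th to 95th percentile of all probe sets tested (-0.54 to 0.51); IDP2, circled, is the member with an adjusted p under 0.05, and the regulators sit between -0.13 and 0.31.

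The glyoxylate cycle lets cells build sugars from acetate by bypassing the steps of the citrate cycle that release carbon dioxide. IDP2 (YLR174W), listed here beside the genes of this cycle, encodes the cytosolic isocitrate dehydrogenase that makes NADPH. Its scaled signal was 160.8, 178.0 and 132.9 on wild-type arrays 1, 2 and 3, and 273.4, 302.0 and 248.0 on mutant arrays 1, 2 and 3. Each mutant array exceeded each wild-type array. The means were 157.2 ± 22.8 (SD, n = 3) and 274.4 ± 27.0 (SD, n = 3), and IDP2 rose by 0.75 (SE 0.15, 95% interval 0.40 to 1.10, limma adjusted p = 0.0404). The mutant mean was 175% of the wild-type one. In RNA from whole cultures, a change in the share of cells that express a gene and a change per cell cannot be told apart.

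This call lay close to the threshold. With 1 array left out, the IDP2 difference was 0.65 to 0.84, and no such fit kept the call. The adjusted p was 0.138, 0.0725 and 0.173 without wild-type replicate 1, 2 or 3, and 0.110, 0.0502 and 0.0668 without mutant replicate 1, 2 or 3. On the deposited scale the difference was 0.51 with an adjusted p of 0.0878, and with no signal filter the adjusted p was 0.0677.

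ICL1 (YER065C) encodes isocitrate lyase, the entry enzyme of the cycle. Its signal was 300.6, 267.2 and 282.7 in the wild type against 394.9, 357.4 and 323.1 in the mutant. The groups did not overlap, and the difference of 0.32 (SE 0.14, 95% interval 0.01 to 0.63) had a limma adjusted p = 0.236. MLS1 (YNL117W) encodes malate synthase, which takes the glyoxylate that isocitrate lyase forms. It gave 184.6, 216.7 and 195.5 in the wild type against 279.0, 310.1 and 211.6 in the mutant, with a difference of 0.38 (SE 0.17, adjusted p = 0.240). Mutant replicates 1 and 2 were above the wild type, while replicate 3 lay within its range.

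MDH2 (YOL126C), the gene of the cytosolic malate dehydrogenase that follows malate synthase, stood on the other side. Its signal was 774.9, 788.3 and 846.8 in the wild type against 562.5, 601.2 and 622.4 in the mutant. All mutant arrays lay below all wild-type arrays, at 74.1% of the wild-type mean. The difference of -0.42 (SE 0.12, 95% interval -0.70 to -0.15) had a limma adjusted p = 0.108 with equal array means. On the deposited scale MDH2 passed the threshold, at -0.67 with an adjusted p of 0.0193, a scale on which the median of all probe sets was -0.22. SFC1 (YJR095W), the mitochondrial carrier that exchanges succinate for fumarate, was below the filter, at 42.7 ± 6.20 (SD, n = 3) in the wild type against 48.7 ± 9.27 (SD, n = 3) in the mutant. Of the tested genes of the cycle, ICL1 and MLS1 thus lay above 0 and MDH2 below it. ICL2 (YPR006C), a mitochondrial relative of ICL1 that acts in the methylcitrate cycle, gave 323.2, 301.1 and 331.1 in the wild type against 330.7, 494.0 and 312.6 in the mutant. Its groups overlapped, with mutant replicate 2 standing above all other arrays (difference 0.21, limma adjusted p = 0.549).

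The carnitine shuttle carries acetyl units made in the cytosol or the peroxisome into mitochondria. YAT2 (YER024W) encodes a carnitine acetyltransferase. Its signal was 87.7, 119.9 and 100.6 in the wild type against 189.8, 147.6 and 213.6 in the mutant. The groups did not overlap, and the mutant mean was 179% of the wild-type mean. The difference of 0.75 (SE 0.18, 95% interval 0.35 to 1.14) was as large as that of IDP2 but did not pass the threshold (limma adjusted p = 0.0642). It passed with quantile normalization (adjusted p = 0.0490) and without mutant replicate 2 (0.0294). Without mutant replicate 2, calls over all probe sets also rose, from 61 higher and 92 lower to 124 and 140. With any other array left out, the YAT2 adjusted p was 0.0948 to 0.237, and with no signal filter it was 0.105.

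The other shuttle genes gave values below 0. YAT1 (YAR035W), another carnitine acetyltransferase, had signals of 200.8, 191.3 and 214.4 in the wild type against 175.2, 152.8 and 162.0 in the mutant. All mutant arrays were lower, with a difference of -0.28 (SE 0.14, limma adjusted p = 0.287). CRC1 (YOR100C), the carrier that brings acetylcarnitine into mitochondria, gave 111.1, 122.7 and 138.1 in the wild type against 106.2, 109.6 and 87.6 in the mutant. These groups also did not overlap (difference -0.26, adjusted p = 0.391). CAT2 (YML042W), the acetyltransferase of mitochondria and peroxisomes, overlapped between groups, at 117.8 ± 20.6 and 108.0 ± 15.1 (SD, n = 3; difference -0.10, limma adjusted p = 0.781).

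Glycerol enters metabolism through 2 enzymes. GUT1 (YHL032C) encodes glycerol kinase, the first of them, with signals of 164.8, 215.5 and 182.1 in the wild type against 277.0, 295.9 and 359.9 in the mutant. Each mutant array was above each wild-type array. The difference was 0.68 (SE 0.16, 95% interval 0.33 to 1.04), and its limma adjusted p of 0.0613 missed the threshold. GUT2 (YIL155C), the mitochondrial glycerol 3-phosphate dehydrogenase of the next step, gave 497.7, 523.1 and 518.1 in the wild type against 660.2, 423.3 and 391.8 in the mutant. The mutant arrays of GUT2 lay on both sides of the wild type (difference -0.10, SE 0.19, adjusted p = 0.819).

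**Figure D2:**
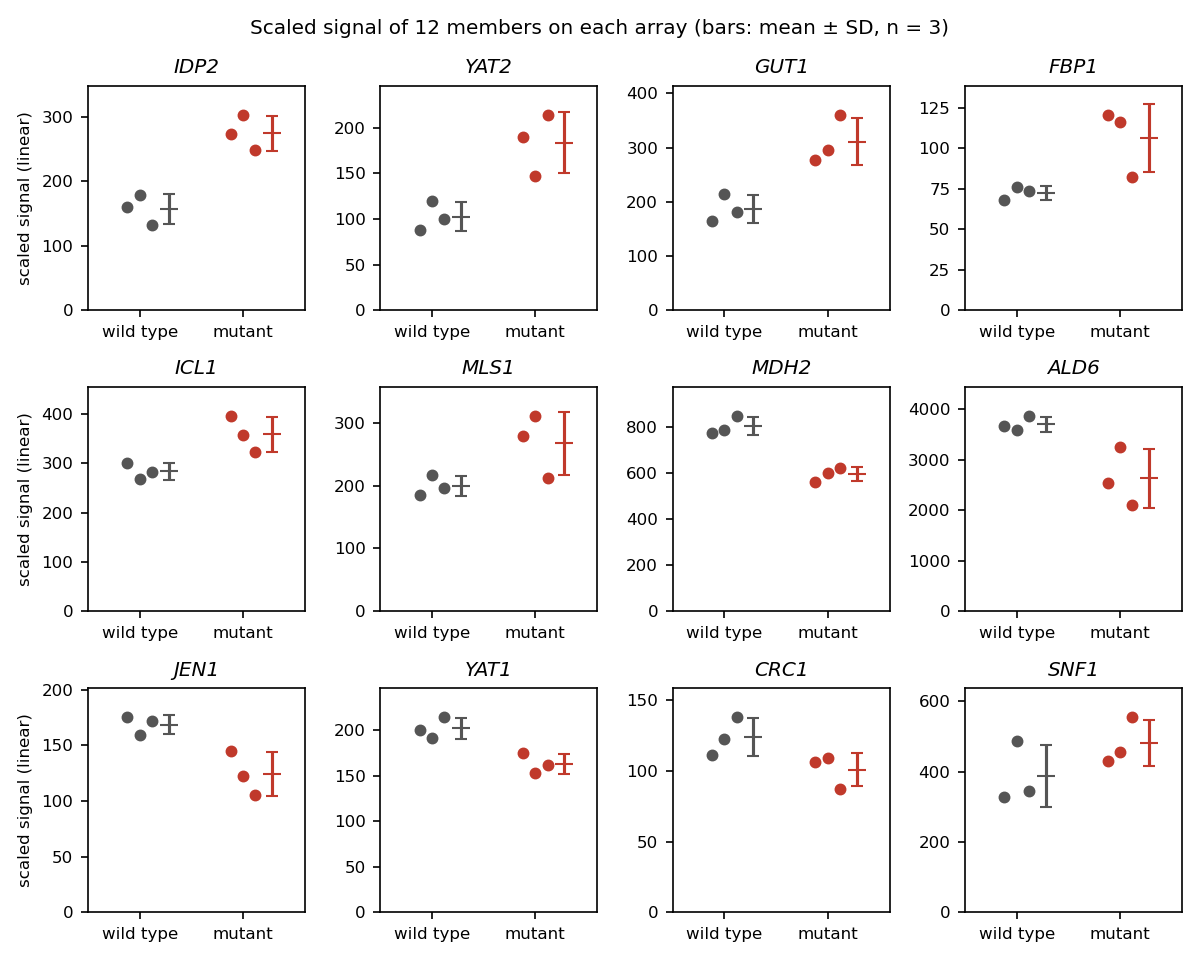
Scaled signal (linear y axis from 0) on each wild-type and mutant array for 11 enzyme and transporter genes and the kinase gene SNF1, chosen after their values were seen; points are arrays and bars the mean ± SD (n = 3). The mutant points of IDP2, YAT2, GUT1, FBP1 and ICL1 lie above all wild-type points. Those of MDH2, ALD6, JEN1, YAT1 and CRC1 lie below them, and those of MLS1 and SNF1 overlap the wild type.

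Gluconeogenesis makes sugar phosphates from smaller compounds, and its 2 dedicated enzymes had values above 0. FBP1 (YLR377C), fructose-1,6-bisphosphatase, gave 67.9, 75.9 and 73.9 in the wild type against 120.3, 116.4 and 82.0 in the mutant. The groups did not overlap, although mutant replicate 3 lay near the wild type. The difference was 0.45 (SE 0.17, 95% interval 0.06 to 0.84, limma adjusted p = 0.191). PCK1 (YKR097W), phosphoenolpyruvate carboxykinase, gave 383.8, 374.2 and 345.3 in the wild type against 520.9, 328.7 and 469.7 in the mutant. Mutant replicate 2 was the lowest of the 6 arrays and replicates 1 and 3 were the highest (difference 0.22, SE 0.18, adjusted p = 0.515). On the deposited scale PCK1 differed by -0.018.

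Ethanol is oxidised to acetaldehyde, then to acetate, and acetate is joined to coenzyme A. ADH2 (YMR303C), the alcohol dehydrogenase that consumes ethanol, is a classical glucose-repressed gene. Its signal was 1201, 1100 and 1165 in the wild type against 1265, 1474 and 866.3 in the mutant. The mutant arrays spread on both sides of the wild type, with a difference of 0.02 (SE 0.18, 95% interval -0.39 to 0.44, limma adjusted p = 0.957) that turned to -0.22 on the deposited scale. ALD4 (YOR374W), the mitochondrial acetaldehyde dehydrogenase, differed by -0.04 (SE 0.15, adjusted p = 0.906), with signals of 1654 to 1867 in the wild type against 1404 to 1935 in the mutant.

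ALD6 (YPL061W) encodes the cytosolic acetaldehyde dehydrogenase. Its signal was 3665, 3577 and 3858 in the wild type against 2532, 3254 and 2105 in the mutant. All mutant arrays were lower, to differing degrees, and their mean was 71.1% of the wild-type mean. The difference of -0.51 (SE 0.16, 95% interval -0.86 to -0.16) had a limma adjusted p = 0.123. Without mutant replicate 2 it was -0.68 with an adjusted p of 0.0246, in a fit that called more probe sets of the whole table too. With any other array left out, the ALD6 adjusted p was 0.193 to 0.335. A second ALD6 probe set lay below the filter, at 17.4 and 15.8. ACS1 (YAL054C), an acetyl-CoA synthetase, gave 330.5, 318.1 and 424.4 in the wild type against 299.6, 335.6 and 185.8 in the mutant. Only mutant replicates 1 and 3 were below the wild-type range (difference -0.40, SE 0.22, adjusted p = 0.344).

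Of the uptake genes, JEN1 (YKL217W) encodes the permease for lactate and pyruvate. It gave 175.3, 159.0 and 172.0 in the wild type against 145.0, 122.5 and 105.4 in the mutant. The mutant arrays were all lower, at a difference of -0.41 (SE 0.15, 95% interval -0.75 to -0.06, limma adjusted p = 0.187). ADY2 (YCR010C), an acetate transporter, was dim and spread widely in both groups, with signals from 30.7 to 73.9 in the wild type, and in the mutant from 31.9 to 59.8 (difference -0.09, SE 0.27, adjusted p = 0.878).

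SUC2 (YIL162W) encodes invertase, which splits sucrose outside the cell and is the standard reporter of Mig1 repression. Its brightest probe set gave 262.2, 330.2 and 277.4 in the wild type against 236.6, 291.5 and 227.0 in the mutant, with overlap (difference -0.19, SE 0.15, limma adjusted p = 0.521). A second SUC2 probe set gave 275.9, 306.8 and 291.6 in the wild type against 205.5, 181.1 and 121.2 in the mutant, without overlap. It differed by -0.76 (SE 0.19, adjusted p = 0.0711). The remaining one was close to 0 on every array, at 0.404 to 0.809. The probe sets of SUC2 therefore disagree in size, and none of them passed the threshold.

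Among the activators, CAT8 (YMR280C) was below the filter, with signals of 26.3, 35.1 and 44.4 in the wild type against 35.9, 28.7 and 59.0 in the mutant, which overlapped. SIP4 (YJL089W), a zinc-cluster activator that binds the same promoter element as Cat8, gave 112.3, 83.1 and 63.4 in the wild type against 80.8, 83.3 and 69.5 in the mutant. The mutant arrays lay inside the wild-type range (difference -0.10, SE 0.20, limma adjusted p = 0.818). ADR1 (YDR216W), the activator named for alcohol dehydrogenase regulation, gave 168.5, 211.5 and 203.5 in the wild type against 185.7, 225.2 and 208.4 in the mutant. The difference was 0.08 (SE 0.15, 95% interval -0.25 to 0.41, adjusted p = 0.804). HAP4 (YKL109W), the activating subunit of the CCAAT-binding complex that drives respiratory genes, gave 305.6 ± 24.5 and 326.6 ± 36.1 (SD, n = 3; difference 0.09, limma adjusted p = 0.772).

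The repressor genes were close in both groups. MIG1 (YGL035C) gave 250.5, 250.7 and 222.1 in the wild type against 231.8, 257.1 and 239.5 in the mutant. Its difference was 0.01 (SE 0.13, 95% interval -0.29 to 0.31, limma adjusted p = 0.972). MIG2 (YGL209W), a related repressor, gave 679.1, 546.9 and 443.0 in the wild type against 472.8, 587.8 and 452.7 in the mutant. The wild-type arrays of MIG2 spanned the mutant ones (difference -0.13, SE 0.18, adjusted p = 0.742).

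SNF1 (YDR477W), the catalytic subunit of the kinase, had the largest difference of the regulators, 0.31 (SE 0.18, 95% interval -0.08 to 0.71, limma adjusted p = 0.363). Its signal was 327.2, 487.2 and 345.7 in the wild type against 430.0, 456.0 and 554.1 in the mutant. Wild-type replicate 2 lay among the mutant arrays. SNF4 (YGL115W), the activating subunit, gave 456.5, 464.6 and 448.7 in the wild type against 482.1, 354.1 and 450.7 in the mutant (difference -0.10, adjusted p = 0.758). REG1 (YDR028C) differed by 0.15 (SE 0.15, adjusted p = 0.623). GLC7 (YER133W) differed by -0.04 (SE 0.17, adjusted p = 0.912) at its brightest probe set and by -0.10 at its other one (adjusted p = 0.810).

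For each of the 9 tested regulators the 95% interval of the difference included 0 and stayed within 1 in either direction, the widest bound being 0.71. For each of these genes, changes within its own interval, 0 included, are not excluded here. Among the enzymes and transporters, 17 of 20 intervals stayed within 1, the exceptions being IDP2, YAT2 and GUT1. The 9 of 20 that excluded 0 are the genes counted above at an unadjusted limma p under 0.05. The share of all probe sets at that level was 19.6%. The intervals are for single genes and are not corrected for the number of genes.

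Genes of related steps were also compared within each array, as the log2 ratio of the scaled signals (each plus 16), which a common factor per array leaves nearly unchanged. These 12 pairs were chosen after values had been seen, and many use members already described as differing. Their p-values are therefore descriptions and give no support. The pairs are not independent, as YAT2 enters both its ratio to YAT1 and that to CAT2. The share of all possible gene pairs without overlap was not computed. With 3 arrays against 3, the smallest p an exact two-sided permutation test can give is 0.1, and the 5 pairs whose groups did not overlap had this value (0.24 after Benjamini-Hochberg adjustment over the pairs). The ratio of YAT2 to YAT1 was -1.06, -0.61 and -0.98 in the wild type against 0.11, -0.05 and 0.37 in the mutant, a difference of 1.03 (SE 0.18). The ratio was higher on each mutant array than on any wild-type array. The ratio of YAT2 to CAT2 differed by 0.85 (SE 0.28).

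IDP2 relative to IDP1, the mitochondrial isozyme, was -3.27, -3.19 and -3.55 in the wild type against -2.61, -2.34 and -2.50 in the mutant, a difference of 0.85 (SE 0.13). MDH2 relative to MDH1, the mitochondrial malate dehydrogenase, was -2.25, -2.29 and -2.15 in the wild type against -2.85, -2.89 and -2.65 in the mutant. This ratio was lower on each mutant array, by a difference of -0.57 (SE 0.08). GUT1 relative to GUT2 differed by 0.78 (SE 0.33), with mutant replicate 1 (-1.21) just above the highest wild-type array (-1.22). The groups overlapped in the other 7 pairs, among them ICL1 to MLS1 (-0.06, SE 0.16, exact p = 0.6) and ADH2 to ADH1 (0.13, SE 0.19, exact p = 0.5).

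**Figure D3:**
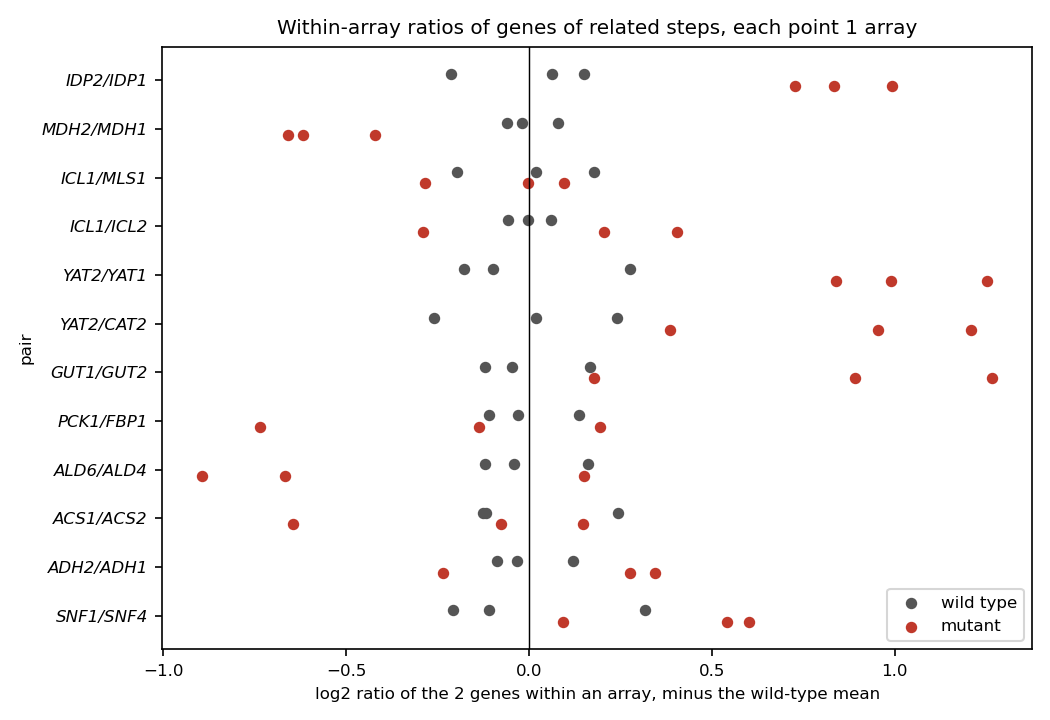
Log2 ratio of 2 genes within each array minus the wild-type mean of that ratio (x axis) for 12 pairs (y axis); each point is 1 array, 3 wild-type and 3 mutant. The mutant points of IDP2/IDP1, YAT2/YAT1, YAT2/CAT2 and GUT1/GUT2 lie to the right of all wild-type points, those of MDH2/MDH1 to the left, and the other 7 pairs overlap.

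The scaling set the sign of 7 members, whose differences with equal array means were 0.01 (MIG1) to 0.22 (PCK1). On the deposited scale ADH2, ICL2, PCK1, ADR1, HAP4, MIG1 and REG1 turned from above to below 0, at -0.22, -0.028, -0.018, -0.15, -0.15, -0.22 and -0.092. Relative to the median of all probe sets on that scale, IDP2 stood at 0.73, YAT2 at 0.73, GUT1 at 0.66, MDH2 at -0.45 and ALD6 at -0.55. These values are close to those with equal array means.

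**Figure D4:**
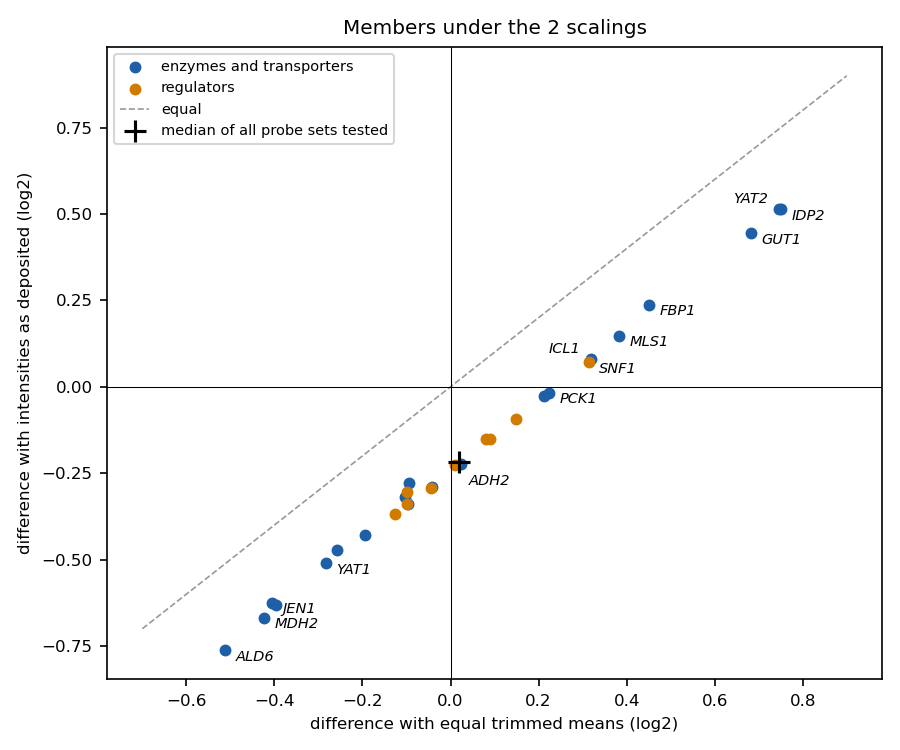
Difference of each of the 29 tested members with equal trimmed means (x axis) against that with the intensities as deposited (y axis), both log2; the cross is the median of all probe sets tested (0.02 and -0.22) and the dashed line marks equal values. The members lie along a line parallel to the dashed one and below it, as a factor per array gives. IDP2, YAT2 and GUT1 are above 0 on both axes and MDH2 and ALD6 below 0 on both.

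Other genes of the same pathways, listed by role, showed no call in any list with limma. Their counts at an unadjusted p under 0.05 are to be read against the 19.6% of all probe sets tested. Of 18 further genes of Snf1 and glucose signalling, all tested, 2 had an unadjusted p under 0.05, a share below that of all probe sets, and the median difference was -0.03. The lowest adjusted p belonged to HXK2, the hexokinase with a part in glucose repression, which gave 5002, 4454 and 5131 in the wild type against 3777, 4323 and 3145 in the mutant (difference -0.38, adjusted p = 0.166). GAL83, a subunit of the Snf1 complex, differed by -0.40 (adjusted p = 0.172), with all mutant arrays (355.8 to 466.1) below all wild-type arrays (532.4 to 578.9).

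Of 7 other activator genes, 1 had an unadjusted p under 0.05, again no more than the 19.6% of all probe sets. PIP2, an activator of fatty acid oxidation genes, gave 137.8, 156.6 and 110.7 in the wild type against 214.0, 211.0 and 250.0 in the mutant, without overlap (difference 0.68, SE 0.16, limma adjusted p = 0.0626). ERT1 followed at 0.20 (adjusted p = 0.473). Of 26 isozyme and neighbouring-step genes, 24 were tested and 4 had an unadjusted p under 0.05, 1 higher and 3 lower, also below the share of all probe sets, with a median difference of -0.09. MAE1, the mitochondrial malic enzyme, gave 2641, 2302 and 2455 in the wild type against 1762, 2159 and 1515 in the mutant (difference -0.45, adjusted p = 0.139). ADH5, an alcohol dehydrogenase, differed by -0.69 (adjusted p = 0.159).

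The GID ubiquitin ligase marks gluconeogenic enzymes such as Fbp1 for destruction when glucose returns. Of its 8 listed genes, 7 were tested and 2 had an unadjusted limma p under 0.05, both higher. With 19.6% of all probe sets at this level, a count of 2 among 7 genes is near the background. GID8 differed by 0.43 (adjusted p = 0.180) and VID24, the substrate receptor, by 0.31 (adjusted p = 0.225). For VID24 the mutant arrays (665.4 to 764.1) lay above the wild-type arrays (559.9 to 622.7).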

How the data were processed

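The authors deposited 1 intensity per probe set and array, on a linear scale; the submitters' processing notes name MAS5 without a version. Per the labels' protocols, about 20 ug of total RNA per sample was labelled, from cultures at an optical density of 0.5 to 0.7. Sample titles gave the groups and replicate numbers. The table held 9335 probe sets, and 60 of them, the controls, were not used. Arrays were brought to a common 2% trimmed mean of 500. The 6808 probe sets whose scaled signal averaged 50 or more entered limma 3.58.1 in R 4.3.3 (linear fit, moderated by eBayes with a trend on intensity). The fit used log2(signal + 16), which understates changes of dim probe sets, and p-values were adjusted by Benjamini-Hochberg over all 6808. Calls use a threshold of 0.05 on the adjusted p. Precision is limited by the number of arrays (median SE 0.16). Probe sets were named through the platform annotation, and systematic names came from a RefSeq gene table of assembly R64. All members are named, and of each further list any called gene or else the 2 with the smallest adjusted p. Members and lists were chosen with earlier results of these data known. The fit was tested on simulated data. Tried as alternatives were 3 scalings, 2 offsets (1 and 64), filters of 0 and 200, no trend, a replicate block, all probe sets of a gene and left-out arrays. Removal of each array's trend with gene length and the pair ratios were chosen after seeing the data. A planned search of promoter motifs was not run, as no promoter sequence was used here.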

Additional observations from a re-analysis of the deposited data

How the results depend on the processing

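The count of enzyme and transporter genes called higher, 1 with limma, was 0 with the intensities as deposited and with no signal filter. It was 2 with quantile normalization (IDP2 and YAT2) and 2 with the replicate block (IDP2 and GUT1), and 0 to 1 when arrays were left out in turn; the call left without mutant replicate 2 was YAT2. The count called lower, 0, was 1 on the deposited scale (MDH2) and 0 to 1 with arrays left out (ALD6, without mutant replicate 2). No regulator was called under any alternative run. On the deposited scale the median difference was -0.28 for enzymes and transporters and -0.22 for regulators, where that of all probe sets was -0.22. Under the 10 alternatives that keep all arrays and 1 probe set per gene, IDP2 differed by 0.51 to 0.81. Its adjusted p was 0.0270 to 0.0878, and it was called in 8.

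Signs turned for members with differences of -0.13 (MIG2) to 0.22 (PCK1) in the main fit, none of them called. ADH2 was -0.0059 and MIG1 -0.034 with quantile normalization, MIG1 was -0.0017 with median scaling, and with length trends removed ADR1 was -0.014 and MIG1 -0.018. With an array left out, the ranges that crossed 0 were -0.14 to 0.24 for ADH2, -0.011 to 0.15 for ADR1, -0.36 to 0.12 for ADY2, -0.12 to 0.11 for ALD4, -0.22 to 0.076 for GLC7, -0.32 to 0.043 for GUT2, -0.044 to 0.041 for MIG1, -0.27 to 0.025 for MIG2, -0.27 to 0.078 for SIP4 and -0.19 to 0.029 for SNF4. On the deposited scale 7 members were below 0 in place of above it, with ADH2 at -0.22, ADR1 -0.15, HAP4 -0.15, ICL2 -0.028, MIG1 -0.22, PCK1 -0.018 and REG1 -0.092. The cause was not tested.

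Over all probe sets, 61 higher and 92 lower calls became 31 and 370 on the deposited scale, 33 and 54 with no filter, 41 and 57 with the filter at 200, and 36 and 60 of 5632 probe sets with length trends removed. They became 13 to 124 higher and 23 to 140 lower with an array left out. With the replicate block they were 108 and 147; same-numbered arrays deviated from their group means with correlations of 0.13, 0.16 and 0.042, and 5 of the 6 arrays correlated best with the array of their own number, which does not show that the numbers pair the samples. The number of arrays and the signal over background limit what could be seen of SFC1, CAT8 and ADY2.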

Other observations

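The mutant arrays differed among themselves, and not only in the members. Over all probe sets tested, arrays correlated at 0.964 to 0.983 within the mutant and at 0.985 to 0.989 within the wild type. The counts below were made for the members only, with no share of all probe sets to set beside them. Mutant replicate 3 had the lowest signal of the 3 mutant arrays for 13 of the 20 tested enzyme and transporter genes, replicate 2 for 5 and replicate 1 for 2. For the 9 regulators it was the lowest for 2, as was replicate 2, and replicate 1 for 5. The median deviation of the enzyme and transporter genes from the wild-type mean was 0.13, -0.03 and -0.14 on the log2 scale for mutant replicates 1, 2 and 3. Mutant replicate 3 was also the array with the lowest mean as deposited, 0.767 of the wild type; its part in these values was not tested.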
